A study of Gallus gallus with 100 samples.

Results

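The nuclear-encoded genes of the mitochondrial respiratory chain and of ATP synthase were examined in pituitary glands of broiler chickens. The genes were chosen by symbol: NDUFA, NDUFB, NDUFC, NDUFS and NDUFV genes of complex I, SDHA, SDHB, SDHC and SDHD of complex II, UQCR genes and CYC1 of complex III, COX4 to COX8 genes of complex IV and ATP5 genes of complex V, with the NDUFAF assembly factors left out. Of 18685 genes named in at least 1 of the 6 deposited tables, 62 met this rule, of which 32 belonged to complex I, 2 to complex II, 7 to complex III, 7 to complex IV and 14 to complex V. The tables, 1 for each day, did not list the same genes. They held 45 of the 62 at day 21, 40 at day 22, 51 at day 26, 57 at day 32, 49 at day 40 and 52 at day 42. Of these, 32 stood in all 6 tables and 8 in 1 table only, and SDHB, SDHD, CYC1 and the mitochondrially encoded subunits were listed in none of them.

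Complexes I and II pass electrons from NADH and succinate to ubiquinone, complex III passes them on to cytochrome c, and complex IV hands them to oxygen. Complexes I, III and IV pump protons across the inner mitochondrial membrane, and complex V, the ATP synthase, uses the proton gradient to make ATP. Endocrine and neural tissue both depend on this pathway for hormone or transmitter secretion and for ion pumping.

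Male Ross 708 broilers were kept in 2 houses, and the whole gland of each bird gave 1 polyA RNA library. Control birds stayed at 25 °C and were sampled at days 21 (15 libraries), 22 (10), 26 (6), 32 (6), 40 (5) and 42 (10). Heat birds, from the other house, which was warmed to about 35 to 37 °C for 8 hours a day from day 21, were sampled at days 22 (13 libraries), 26 (5), 32 (6), 40 (5) and 42 (17). The titles add 2 hours to the samples of day 26 and 4 hours to those of day 32, and the day 42 heat birds had had 3 weeks of the cycle. The titles of the day 40 samples, control and heat, also carry the word week, and day 40 is not among the necropsy days that the design text lists, so how long these birds had been heated is not clear. All birds were of 1 commercial line with no other treatment, and the house cannot be told apart from the heat.

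The values are FPKM, fragments per kilobase of gene scaled to the mapped reads of the library, which allow levels to be compared between genes of 1 library; how the scale was set between the tables of different days is not given in the sources used here. The label pituitary did not hold equally on all days. The summed level of the listed anterior lobe hormones had group medians of 19.8 to 130 FPKM from day 21 to day 40 and of 137990 (control) and 156260 FPKM (heat) at day 42, and POU1F1, a transcription factor of hormone cells, was at most 0.43 FPKM before day 42. GFAP, a filament protein of astroglia, was at 362 to 1950 FPKM at days 21, 26 and 32, where it was listed, and at most 11.4 FPKM at day 42. Day 42 libraries and earlier ones therefore differed in cell type markers, and in bulk tissue fewer cells of a type and less RNA per cell cannot be told apart. Day 42 control library 1012 and heat library 984 stood apart from their groups, with 6709 and 6931 genes at 1 FPKM or more. A relative depth was estimated within the libraries of each day, from the nonzero values of genes undetected in many of them. It was set to 1 in the deepest library of a day, so it does not compare depth between days. The values ran from 0.404 to 1 at days 21 to 40 and from 0.172 to 1 in day 42 controls. In day 42 heat birds they ran from 0.00732 in library 984 to 0.693, with the next lowest at 0.15 in library 1015.

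In each group of libraries, only 2 or 3 of the listed respiratory chain genes had a median below 10 FPKM. Of the 62, 32 had a value in each of the 98 libraries. ATP5A1W, the copy on chromosome W, was left out, and the median of the other 31 was taken for each library. They were 17 genes of complex I, 1 of complex II, 2 of complex III, 4 of complex IV and 7 of complex V. This median was 112 ± 10.2 FPKM (mean and SD, n = 15) at day 21, and at day 22 it was 103 ± 6.85 in control (n = 10) and 108 ± 11.2 in heat birds (n = 13). It was higher at day 26, with 155 ± 25.6 (n = 6) and 162 ± 13.3 FPKM (n = 5), and at day 32, with 166 ± 21.6 (n = 6) and 150 ± 30.4 FPKM (n = 6). Values of 125 ± 17.3 (n = 5) and 129 ± 5.57 FPKM (n = 5) followed at day 40, and 125 ± 24.4 (n = 10) and 126 ± 27.7 FPKM (n = 17) at day 42. In FPKM the highest group means were thus those of days 26 and 32, and within each day the spans of control and heat libraries overlapped. As a share of all FPKM of a library the order was another: the 31 genes made up 1.64% at day 21 and, in controls, 1.43% at day 22, 1.62% at day 26, 1.38% at day 32, 1.46% at day 40 and 1.15% at day 42 (group means), while the FPKM total of a library had a median of 267304 at day 21, 353515 in day 26 controls and 448881 in day 32 controls.

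**Figure D1:**
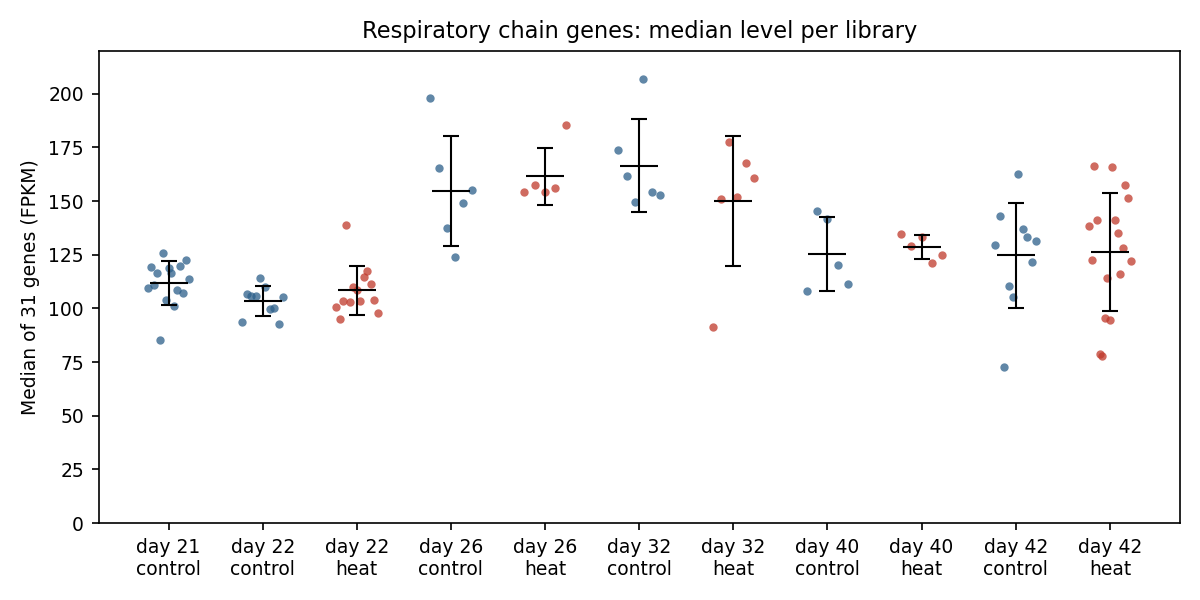
Median FPKM of 31 respiratory chain genes present in every library, without ATP5A1W (vertical axis), for each of the 11 groups of birds (horizontal axis). Each point is 1 library, control in blue and heat in red, with the group mean and 1 SD. The day 26 and day 32 means (150 to 166 FPKM) were above those of days 21 and 22 (103 to 112 FPKM), which was not so for the share of all FPKM (1.38% in day 32 controls and 1.64% at day 21), and 1 day 32 heat library stood low at 91.5 FPKM.

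The genes of the 5 complexes differed widely in level. ATP5S, which encodes coupling factor B of mammals, was low throughout, with group medians of 7.18 FPKM in day 22 controls and 9.42 FPKM in day 42 controls. ATP5I, subunit e of the ATP synthase membrane part, had the highest median wherever it was listed, from 604 FPKM in day 42 controls to 1048 FPKM in day 32 controls. ATP5E, the epsilon subunit of the central stalk, was first among the 31 genes in most groups, with medians of 554 FPKM at day 21 and 361 FPKM in day 22 controls. In day 42 controls ATP5D, the delta subunit of the same stalk, came first of the 31 with a median of 453 FPKM, having ranked 6 in day 22 controls. NDUFB2 moved from rank 18 to 8 and NDUFA4 from rank 4 in day 22 controls to 16 or 17 at day 42.

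Core subunits of complexes I to III were lower than many small accessory subunits. COX4I1, a core subunit of complex IV, was high, with control medians of 248 to 346 FPKM. NDUFV1, which binds NADH, had control medians of 48.0 to 80.0 FPKM across the 5 days that listed it, and NDUFS1, the largest iron-sulfur subunit of complex I, of 18.4 to 32.6 FPKM. SDHA, the flavoprotein of complex II, had control medians of 29.5 to 46.3 FPKM. UQCRC1, a core protein of complex III, had control medians of 34.2 to 50.2 FPKM, below UQCR10, a small subunit of the same complex, at 185 to 378 FPKM. Between isoforms of 1 subunit, ATP5G1 (155 FPKM) was above ATP5G3 (105 FPKM) at day 21, and again at day 26 (147 against 114 FPKM in controls), although the libraries of the 2 genes overlapped at both days. Both encode subunit c of the membrane rotor. ATP5B, the catalytic beta subunit, was listed only at days 40 and 42, at control medians of 299.8 and 283 FPKM, above its partner ATP5A1, the alpha subunit, at 155 and 107 FPKM.

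Birds of 1 group varied in these genes about as much as in other genes of like level. The median coefficient of variation was 18.5% over 38 respiratory chain genes in day 22 controls, beside 20.8% over 1583 genes of like level, and in day 42 controls it was 34.4% over 50 genes beside 38.8% over 1428 genes. Day 42 libraries were therefore about as unequal in respiratory chain genes as in other genes. COX7C was the steadiest at day 21 (10.8%), and NDUFA1 the most variable (131%).

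NDUFA1, a small accessory subunit of complex I, was either at 0 or well expressed. Over the 5 days with a value, 30 of 75 libraries gave 0 and the other 45 gave 44.0 to 216 FPKM. In day 40 controls it was at 0 in 4 libraries and at 86.2 FPKM in the fifth, and in day 40 heat birds it was at 0 in 3 and at 78.5 and 87.1 FPKM in 2. It was at 0 in 9 of 15 libraries at day 21, 3 of 6 and 2 of 5 at day 26, 4 of 6 and 2 of 6 at day 32, and 2 of 10 and 1 of 17 at day 42 (control before heat). A value of 0 beside values of this size can be a failed estimate, so no mean is given. NDUFA6 was likewise at 0 in 2 libraries of day 21, 1 day 22 heat library and 1 day 40 control, and NDUFB1 in 1 day 26 control.

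Between days 21 and 22, control birds differed little. Of 37 genes listed on both days 36 passed the minimum mean of 1 FPKM, and none was called higher or lower, beside 0.0643% of the 7781 genes tested. Genes were called between days where limma gave a Benjamini-Hochberg adjusted p below 0.05 over all genes tested and a change of at least 2-fold on the log2(FPKM + 1) scale. At an unadjusted p below 0.05, 12 of 36 were reached, beside 10.6% of all genes. NDUFA4 had the smallest p: 292 FPKM at day 21 and 233 FPKM at day 22, a log2 change of -0.32 (SE 0.08, adjusted p = 0.069). The median change was -0.14 over the 36 genes and 0.01 over all genes.

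At day 26, 6 respiratory chain genes were more than 2-fold above day 22 in control birds and none was lower. They were 6 of 39 tested, beside 1.96% of all 8026 genes called higher and 9.31% called lower. The 39 included ATP5A1W, the copy on chromosome W, which passed the minimum mean only through day 26 library 1514, at 30.9 FPKM. Without that library 7 of 38 were called higher, beside 154 of 8035 genes. Of the 6, 4 belong to complex I (NDUFB2, NDUFS5, NDUFA2 and NDUFAB1), 1 to complex III (UQCR10) and 1 to complex IV (COX6A1). By the adjusted p alone 22 rose, beside 7.08% of all genes, including all 6 tested genes of complex IV, and ATP5A1 fell, beside 43.1% of all genes. In 12 of the 39 every day 26 library was above every day 22 library, which was so for 1.52% of all genes.

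NDUFB2, an accessory subunit in the membrane arm of complex I, rose the most. It had 67.7, 92.7 and 145 FPKM (lowest, median and highest of 10) at day 22 and 228, 307 and 406 FPKM (of 6) at day 26, a log2 change of 1.61 (SE 0.16, adjusted p = 5.81e-06). All day 26 libraries were above all day 22 libraries. COX6A1, in mammals the non-muscle form of subunit VIa, had 209, 260 and 360 FPKM at day 22 and 439, 572 and 940 FPKM at day 26 (1.15, SE 0.16, adjusted p = 5.03e-05), again with no overlap. UQCR10 had 149, 185 and 232 FPKM at day 22 and 308, 375 and 475 FPKM at day 26 (1.06, SE 0.12, adjusted p = 1.47e-05). NDUFS5 (1.33), NDUFA2 (1.15) and NDUFAB1 (1.15), the last also the mitochondrial acyl carrier protein, did not overlap between the days either; these 3 are named because they were called, after their values were seen. ATP5A1 fell by 0.60 (SE 0.19, adjusted p = 0.0129), from a mean of 152 to 102 FPKM, and its libraries overlapped.

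The same direction was found at day 32. Of 38 tested genes, 6 were called higher and none lower, beside 2.05% and 5.84% of 8080 genes, and 29 rose by the adjusted p alone beside 8.04% of all genes. Every library of day 32 was above every library of day 22 in 17 of 38 genes, beside 1.70% of all genes. NDUFS5 (74.5 to 201 FPKM, log2 change 1.43), NDUFB2 (101 to 272 FPKM, 1.39), COX6A1 (270 to 582 FPKM, 1.12), UQCR10 (183 to 409 FPKM, 1.11) and NDUFAB1 (41.5 to 90.1 FPKM, 1.06) were called as at day 26, and ATP5D (161 to 362 FPKM, 1.18) in place of NDUFA2. All adjusted p-values were 0.000139 or less. SDHA fell by 0.50 (SE 0.14, adjusted p = 0.0107) and ATP5C1, the gamma subunit of the central stalk, by 0.29 (SE 0.11, adjusted p = 0.046), neither by 2-fold, beside 34.3% of all genes lower by the adjusted p. The comparisons with day 22 share their 10 day 22 libraries and are not independent.

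The median change of the respiratory chain genes stood above that of all genes at both days. It was 0.48 against -0.35 at day 26 and 0.60 against -0.24 at day 32. When each library was rescaled to its median gene the medians were 0.92 against 0.01 and 0.92 against 0.04, and at an equal FPKM total for each library 0.47 against -0.36 and 0.41 against -0.40, so no direction turned. The split of all calls did turn at day 26, from 157 higher and 747 lower to 406 and 230 with the median gene as the scale, and at day 32 from 166 and 472 to 353 and 225. At day 32 an equal total left 2 of the 6 genes past 2-fold, NDUFB2 and NDUFS5, beside 103 of 8078 genes called higher.

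Library numbers differed between these days, and some libraries of days 26 and 32 held muscle transcripts. The day 22 controls were numbered 1400 or above and 3 of 6 day 26 controls below 1100. With only the libraries numbered 1500 and above, NDUFB2 (1.68) and NDUFS5 (1.29) were the 2 genes called of 39, and the median change was 0.31. Over all 7931 genes tested there, 114 were called higher and 819 lower. Day 32 controls shared no range of numbers with day 22, so that the number range and the day cannot be told apart there. Summed striated muscle markers were at 17.4 to 1376 FPKM in day 26 controls. Among day 32 controls only library 1277 was above 100 FPKM, at 628 FPKM. Without the libraries above 100 FPKM of such markers, 6 genes were called higher at day 26, now with NDUFV3 (1.10) and without UQCR10 (0.99), and 5 at day 32, with medians of 0.50 and 0.53. Over all genes tested, 140 of 8063 were then called higher at day 26 and 162 of 8093 at day 32. The part of the library numbers and of the muscle transcripts in the rise was not tested further.

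At day 40 no respiratory chain gene was called against day 22 in control birds. Of 36 tested genes 0 were called by limma, beside 0.188% of 7967 genes, and 12 had an unadjusted p below 0.05, beside 17.2% of all genes. The smallest p belonged to NDUFS4 (54.8 FPKM at day 22 and 34.3 FPKM at day 40, log2 change -0.64, SE 0.19, adjusted p = 0.111) and NDUFS5 (74.5 and 114 FPKM, 0.61, SE 0.19, adjusted p = 0.12). The median change was 0.11 over the 36 genes and -0.06 over all genes. NDUFB2 was at a mean of 135 FPKM, less than 1.5-fold above day 22.

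Between days 22 and 42, 3 respiratory chain genes, ATP5D, NDUFB2 and NDUFV3, rose by more than 2-fold in control birds and none fell by 2-fold. That was 3 of 38 tested genes, beside 12.8% of 8298 genes called higher and 20.2% called lower, so the share of called genes was below that of all genes in both directions. By the adjusted p alone 15 rose beside 21.3% of all genes, and 2, NDUFA4 and UQCRFS1, fell beside 31.8%. The groups did not overlap in 3 genes: ATP5D and NDUFV3 were higher and NDUFA4 was lower in every day 42 library, beside 5.36% and 13.3% of all genes. At an equal FPKM total for each library none was called higher and 6 were called lower (ATP5A1, ATP5C1, NDUFA4, NDUFS4, SDHA and UQCRFS1). Over all 8159 genes tested, that scale called 549 higher and 3044 lower.

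**Figure D2:**
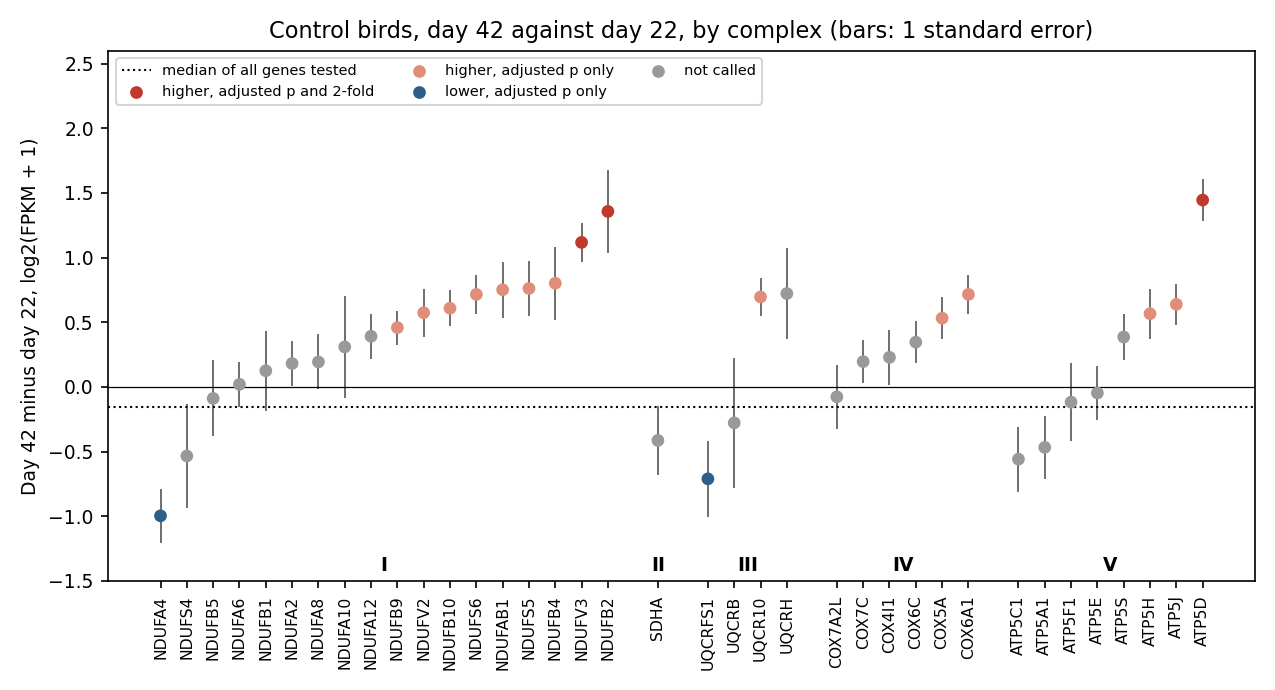
Change of 37 of the 38 tested genes from day 22 to day 42 in control birds on the log2(FPKM + 1) scale (vertical axis), by complex I to V (horizontal axis), with 1 standard error as bars. Dark red marks the 3 genes called higher, pale red those higher and blue those lower by the adjusted p alone; the dotted line is the median of all genes (-0.15), and at an equal FPKM total the median of these 38 genes turned from 0.33 to -0.32.

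Of the genes counted here with complex I, NDUFA4 was lower and the others past the adjusted p were higher. NDUFV3, an accessory subunit of the NADH-oxidizing module (chromosome 1, 108926007 to 108933092 as the day 42 table gives it), had 22.8, 33.0 and 40.6 FPKM at day 22 and 43.6, 71.1 and 89.97 FPKM at day 42 (lowest, median and highest of 10). No library of 1 day reached those of the other, and the change was 1.12 (SE 0.15, adjusted p = 8.93e-07). At an equal FPKM total it was 0.47, still past the adjusted p but below 2-fold.

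NDUFB2 (chromosome 1, 57069338 to 57070148) had 67.7, 92.7 and 145 FPKM at day 22 and 79.2, 225 and 749 FPKM at day 42. The change was 1.36 (SE 0.32, adjusted p = 0.000951), but the days overlapped and libraries 1012 and 1013, at 740 and 749 FPKM, were far above the next, at 408 FPKM. It was 0.70 (adjusted p = 0.077) at an equal FPKM total and 0.88 (adjusted p = 0.10) among the libraries numbered 1400 to 1500, so both ended the call.

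NDUFA4 fell. Long listed with complex I, it is now counted as a subunit of complex IV in mammals. Its 10 day 22 libraries had 194, 228 and 294 FPKM (lowest, median and highest) and the 10 day 42 libraries 41.8, 124 and 185 FPKM. Every day 42 library was lower, and the change of -0.997 (SE 0.21, adjusted p = 0.000272) was just short of 2-fold. It was -1.65 at an equal total and -0.74 after rescaling to the median gene; among the libraries numbered 1400 to 1500 it was -0.67 (adjusted p = 0.094). Over the 6 days NDUFA4 was listed with 4 different pairs of start and end positions, NDUFB2 also with 4 and NDUFV3 with 3. More than 1 pair was listed for 17 of the 62 genes. Small shifts of a boundary also counted, as for ATP5F1, with a start at 3157219 or 3157220. Reads of NDUFA4, NDUFB2 and NDUFV3 may thus not have been counted over the same exons at each day, which was not tested.

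Of 19 tested genes counted here with complex I, 9 were higher by the adjusted p, beside 21.3% of all genes. Only NDUFA4 was lower, beside 31.8% of all genes. The median change was 0.39 over the 19 and -0.15 over all genes, and the median of the 38 respiratory chain genes tested turned from 0.33 to -0.32 at an equal FPKM total. Among the 9 were NDUFS6 (64.2 to 108 FPKM, 0.72) and NDUFB10 (125 to 194 FPKM, 0.61).

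SDHA of complex II and UQCRFS1 of complex III had lower means at day 42. SDHA had 26.0, 46.3 and 52.6 FPKM at day 22 and 7.57, 34.5 and 69.6 FPKM at day 42 (-0.41, SE 0.27, adjusted p = 0.202). UQCRFS1, the Rieske iron-sulfur protein, had 47.2, 102 and 106 FPKM at day 22 and 11.3, 63.4 and 97.7 FPKM at day 42 (-0.71, SE 0.29, adjusted p = 0.0449). The 2 day 22 libraries at 47 FPKM were those numbered 1400 to 1500, and against them the 6 day 42 libraries of the same range had a change of 0.64, so the direction turned within the range. Leaving out single libraries gave changes of -0.81 to -0.48, with an adjusted p of up to 0.0747.

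Other genes of complex III rose or were not called. UQCR10 rose from 183 to 301 FPKM (0.70, SE 0.15, adjusted p = 0.00039). UQCRH, the hinge protein that helps cytochrome c bind, had means of 219.8 and 581 FPKM (0.72, SE 0.35, adjusted p = 0.0883), with library 993 at 3092 FPKM and a day 42 median of 323 FPKM.

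Of the COX genes of complex IV, the 2 past the adjusted p were higher. NDUFA4, counted here with complex I, was lower. COX6A1 had 209, 260 and 360 FPKM at day 22 and 280, 457 and 635 FPKM at day 42 (0.72, SE 0.15, adjusted p = 0.00034). COX5A had 78.4, 99.6 and 130 FPKM and then 81.5, 140 and 232 FPKM (0.53, SE 0.16, adjusted p = 0.00839), but -0.12 at an equal FPKM total. COX4I1, the largest nuclear-encoded subunit, had 147, 248 and 315 FPKM and then 98.7, 301 and 381 FPKM (0.23, SE 0.21, adjusted p = 0.377), which turned to -0.43 at an equal total. COX7A2L, a supercomplex factor in mammals, had means of 46.7 and 47.9 FPKM.

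Among the genes of ATP synthase, ATP5D rose the most. ATP5D, on an unplaced sequence (2022969 to 2024877), had 117, 163 and 219 FPKM at day 22 and 269, 453 and 614 FPKM at day 42. No libraries overlapped, and the change was 1.45 (SE 0.16, adjusted p = 5.65e-08), the largest of the 38. It was 0.79 at an equal FPKM total and 1.48 among the libraries numbered 1400 to 1500. Its neighbour in the central stalk, ATP5E, had medians of 361 and 352 FPKM (-0.05, SE 0.21, adjusted p = 0.87).

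ATP5A1 of the F1 head and ATP5C1 of its axle had lower means at day 42, past the adjusted p in neither, and ATP5B, not listed at day 22, was not compared. ATP5A1, on chromosome Z (2151348 to 2159328), had 99.9, 161 and 194 FPKM at day 22 and 45.9, 107 and 274 FPKM at day 42 (-0.47, SE 0.25, adjusted p = 0.115). ATP5C1 had 89.2, 128 and 155 FPKM and then 19.9, 98.8 and 134 FPKM (-0.56, SE 0.25, adjusted p = 0.0654). In the peripheral stalk, ATP5J (161 to 258 FPKM, 0.64, adjusted p = 0.00138) and ATP5H (125 to 196 FPKM, 0.57, adjusted p = 0.0171) rose. ATP5J stood at -0.01 under an equal FPKM total.

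**Figure D3:**
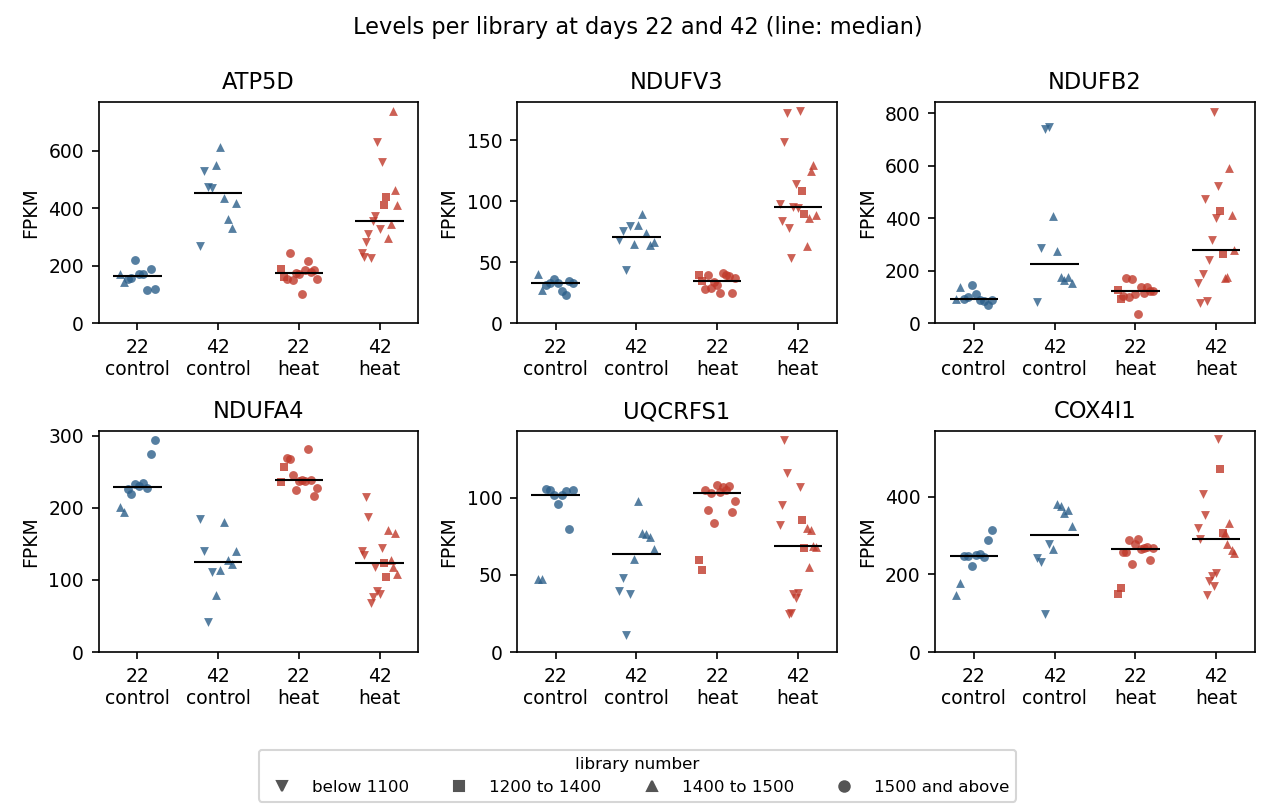
FPKM of ATP5D, NDUFV3, NDUFB2, NDUFA4, UQCRFS1 and COX4I1 (vertical axes) in each library of days 22 and 42, control in blue and heat in red, with the shape of the point giving the range of library numbers and a line at the group median. ATP5D and NDUFV3 controls did not overlap between the days, NDUFA4 was lower at day 42 in both sets of birds, and the UQCRFS1 values of the few day 22 libraries numbered below 1500 lay near 50 FPKM.

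The 38 genes had a median change of 0.33 between days 22 and 42, beside -0.15 over all genes. The sign of the first depended on the scale: it was 0.58 beside 0.05 after rescaling to the median gene and -0.32 beside -0.72 at an equal FPKM total. The difference between both medians was 0.48, 0.53 and 0.41 under the 3 scales. With the libraries numbered 1400 to 1500 alone the medians were 0.62 beside 0.16, with 4 of the 38 genes called higher, ATP5D, NDUFV3, COX4I1 and NDUFAB1. Over all 8358 genes tested there, 1137 were called higher and 1119 lower. The split of all calls moved from 1064 higher and 1678 lower to 549 and 3044 at an equal total. The FPKM of a library summed to a median of 263433 in day 22 controls and 451971 in day 42 controls.

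**Figure D4:**
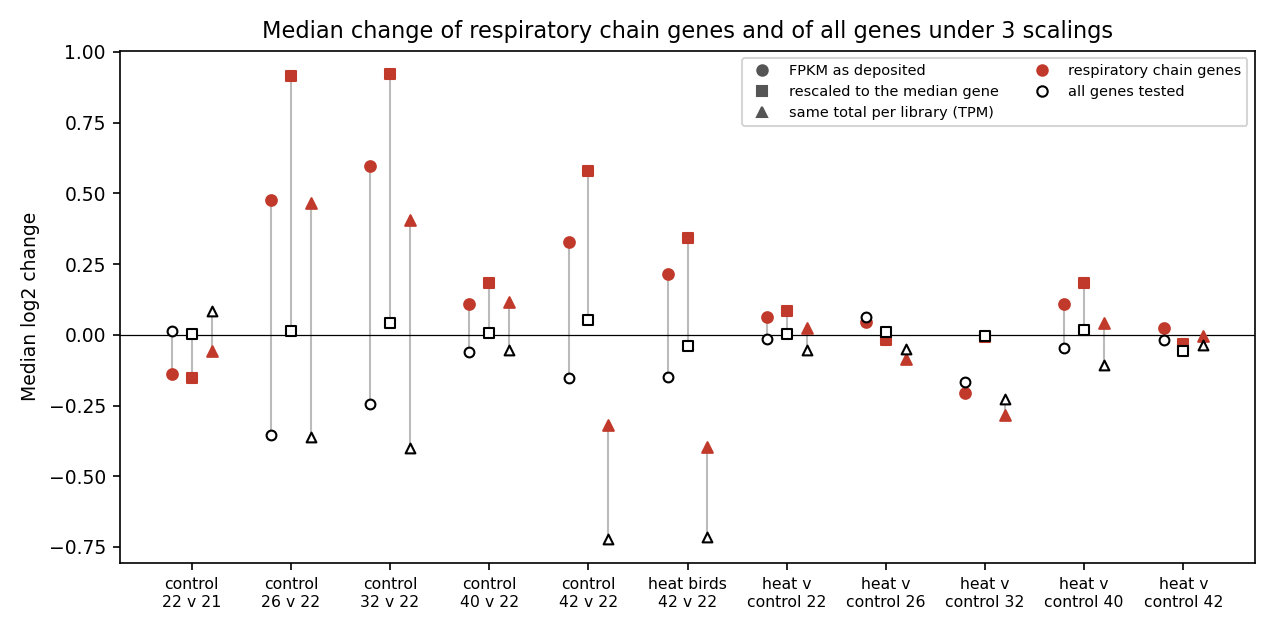
Median log2 change (vertical axis) of the respiratory chain genes (red) and of all genes tested (open) in 11 comparisons (horizontal axis), with FPKM as deposited (circles), rescaled to the median gene (squares) and at an equal total (triangles). The red median was above the open one at days 26, 32, 40 and 42 against day 22 on each scale, while its sign turned at day 42 at an equal total (0.33 to -0.32 in control and 0.21 to -0.40 in heat birds) and in the heat comparisons at days 26 and 42.

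Heat birds at days 22 and 42 use none of the control libraries and gave a second set for these days. They had 8 hours of heat at day 22 and 3 weeks at day 42, so age and length of heating cannot be told apart. The difference in cell type markers between the days was present in both sets. Of 39 tested genes, 4 were called higher and none lower, beside 12.3% and 20.1% of 8249 genes, and 16 rose and 2 fell by the adjusted p alone, beside 24.1% and 36.3%. NDUFV3 had 25.0, 34.8 and 41.2 FPKM at day 22 (of 13) and 53.5, 95.5 and 174 FPKM at day 42 (of 17), with no overlap (1.56, SE 0.15, adjusted p = 2.40e-11). NDUFA4 had 217, 238 and 282 FPKM and then 68.4, 124 and 215 FPKM, again without overlap (-0.996, SE 0.14, adjusted p = 1.13e-07). NDUFV3 and NDUFA4 were the 2 genes without overlap between the days, beside 3.75% of all genes higher and 12.6% lower.

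ATP5D had 103, 174 and 244 FPKM at day 22 and 226, 357 and 739 FPKM at day 42 in heat birds (1.11, SE 0.16, adjusted p = 1.76e-07). ATP5J rose from 164 to 400 FPKM (1.18, SE 0.17, adjusted p = 2.69e-07) and NDUFB2 from 119 to 329 FPKM (1.27, SE 0.28, adjusted p = 0.00018), although not with the range of library numbers in the fit (1.62, adjusted p = 0.14). The 3 overlapped between the days. UQCRFS1 fell from 93.7 to 70.8 FPKM (-0.53, SE 0.21, adjusted p = 0.0311), with 0.42 between the 2 and 2 libraries numbered 1200 to 1400. At an equal FPKM total none of the 39 was called higher and 4 were called lower, beside 614 higher and 2979 lower of 8226 genes. NDUFV3 then stood at 0.93 and ATP5J at 0.53. The median change of 0.21 beside -0.15 over all genes became -0.40 beside -0.72.

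Heat and control birds of the same day were compared 5 times, with an adjusted p below 0.05 as the call and no minimum fold. Limma called 0 respiratory chain genes at each of the 5 days. At day 22 that was 0 of 40, beside 0.121% of 8256 genes higher and 0.0121% lower. At day 26 it was 0 of 51, beside 0.507% and 0.0771% of 9079 genes. At days 32 (57 genes), 40 (48 genes) and 42 (51 genes) no gene at all was called. An unadjusted p below 0.05 was reached by 1, 3, 1, 1 and 2 respiratory chain genes at days 22, 26, 32, 40 and 42, beside 4.93%, 13.7%, 5.92%, 4.71% and 2.62% of all genes.

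COX7C, a small subunit of complex IV, was the clearest of these at day 40. Its control values were 208, 277, 284, 291 and 292 FPKM and its heat values 324.9, 324.9, 329, 345 and 357 FPKM. The 2 groups of 5 did not overlap. Every heat library was above every control library in 1 of the 48 genes and 0.204% of all genes, and the opposite direction was not counted. The log2 change was 0.33 (SE 0.11, unadjusted p = 0.0128, adjusted p = 0.934 by limma). NDUFA12, an accessory subunit of complex I, had 90.6 to 108 FPKM in control and 94.9 to 134 FPKM in heat birds (0.23, adjusted p = 0.934).

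At day 26 the smallest p-values belonged to UQCRB, which lies near the ubiquinone site of complex III, and to NDUFA12. UQCRB had 84.0, 94.6 and 125 FPKM in 6 control birds and 112, 119, 130, 138 and 143 FPKM in 5 heat birds (0.38, SE 0.13, adjusted p = 0.233 by limma). NDUFA12 had 74.4, 95.1 and 123 FPKM in control and 117, 122, 123, 125 and 171 FPKM in heat birds (0.45, SE 0.16, adjusted p = 0.245). The groups overlapped in both. NDUFB2, the gene most above day 22 in day 26 controls, was at means of 309 FPKM in control and 213 FPKM in heat birds (-0.57, SE 0.22, adjusted p = 0.291).

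At day 42 NDUFV3 (70.7 and 106 FPKM, 0.53, SE 0.18, adjusted p = 0.999 by limma) and ATP5J (258 and 400 FPKM, 0.57, SE 0.22, adjusted p = 0.999) had higher means in heat birds, and their libraries overlapped. They also had the smallest p-values for a difference of the heat effect between days 42 and 22 (0.45 and 0.54 on the log2 scale, adjusted p = 0.999), a term for which limma called 0 of 39 genes and 0 of all 8285, with 2 and 1.92% at an unadjusted p below 0.05. At day 22 UQCR10 had means of 183 and 227 FPKM (0.29, SE 0.12, adjusted p = 0.87), and at day 32 ATP5S had 10.4 and 7.03 FPKM (-0.58, SE 0.26, adjusted p = 0.746). The median change over the respiratory chain genes was 0.06, 0.04, -0.21, 0.11 and 0.02 at days 22, 26, 32, 40 and 42. After rescaling to the median gene or at an equal total it stood between -0.09 and -0.02 at day 26, and between -0.03 and -0.0048 at day 42.

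ATP5A1W, the copy of the alpha subunit gene on the female-specific chromosome W, was expressed in 4 libraries although the birds were described as male. It had 38.9 and 52.0 FPKM in day 22 heat libraries 1519 and 1559, 30.9 FPKM in day 26 control 1514 and 31.8 FPKM in day 32 heat library 1305. The other 94 libraries were at 0 to 2.44 FPKM with a median of 0.20. In the first 3 of these libraries ATP5A1, the copy on chromosome Z, was at 77.3, 85.9 and 63.2 FPKM and below every library of the group without W-linked transcripts, the lowest of which were at 95.0 and 85.8 FPKM, and in the fourth it was at 67.1 FPKM, within the 47.6 to 324 FPKM of the others. Near-identical copies may share reads, but the cause of the lower ATP5A1 values was not tested. In the comparisons that hold any of the 4 libraries, ATP5A1W passed the minimum mean of 1 FPKM only through them and counts among the genes tested.

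**Figure D5:**
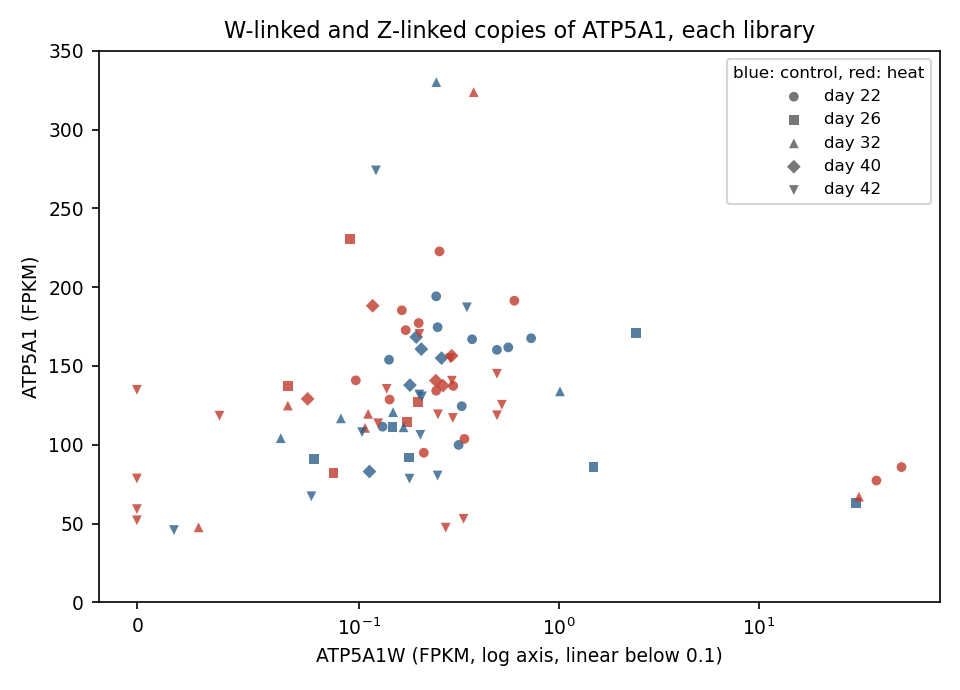
ATP5A1 on chromosome Z (vertical axis, FPKM) against ATP5A1W on chromosome W (horizontal axis, FPKM, logarithmic above 0.1) in each library of days 22 to 42, control in blue and heat in red. The 4 libraries that stood apart were at 30.9 to 52.0 FPKM of ATP5A1W, with ATP5A1 at 63.2 to 85.9 FPKM.

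Other genes of chromosome W went the same way in these libraries. Of 9 other genes that the tables place on W, 4 were listed for all 4 libraries, and 3 of them were above all other 94 libraries in each of the 4: UBAP2 (7.10 to 9.95 FPKM against at most 0.32), LOC769000 (9.28 to 17.6 against at most 0.36) and LOC100859602 (0.21 to 1.08 against at most 0.05). Without the 4 libraries no respiratory chain gene was called between heat and control at days 22, 26 and 32 either, but all calls fell from 10 higher and 1 lower to 0 and 1 at day 22, and from 46 and 7 to 21 and 2 at day 26.

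Locus length moved with the change between days. The respiratory chain genes lay in short loci, with a median of 3380 bases (790 to 49956) beside 9748 bases over all genes. Across the genes tested, the log2 change and the locus length had a Spearman rho of -0.31 at day 26 (8026 genes), -0.40 at day 32 (8080 genes) and -0.17 at day 42 (8298 genes) against day 22, and genes of at most 5000 bases had median changes of 0.01, 0.23 and 0.22 beside -0.41, -0.32 and -0.23 for longer ones. Within the respiratory chain genes of at most 5000 bases the medians were 0.49, 0.63 and 0.23, and 0.16, 0.34 and 0.35 for the longer ones. Over all genes tested, rho was also -0.22 at day 40 against day 22 (7967 genes) and 0.20 at day 22 against day 21 (7781 genes). No respiratory chain gene was called in either comparison. Genes of 1 library are not independent, so these are descriptions. The part of locus length in the changes was not tested.

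Genes around the respiratory chain were counted by pathway list, to be read beside the 12.8% of all genes called higher, the 20.2% called lower and the median of -0.15 in day 42 against day 22 controls. Of 19 assembly factors tested, 2 were called higher, a share near that of all genes, and none lower (median change 0.04). They were COX14 (36.6 to 261 FPKM), which was not called in heat birds (34.1 to 90.5 FPKM, adjusted p = 0.051), and SCO2, a copper chaperone of complex IV (8.501 to 23.4 FPKM). Mitochondrial ribosomal proteins had 2 of 51 called higher, MRPL35 and MRPL55, below the share of all genes, and none lower (0.24). Lists of carriers and porins had 1 of 9 higher and 3 lower (-0.55), the lower ones being CKMT1A, SLC25A13 and SLC25A20, a mitochondrial creatine kinase and carriers of aspartate and of acylcarnitine. The higher one, CKMT2, was at means of 0.043 and 2.49 FPKM and passed the minimum mean of 1 FPKM only through day 42.

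Among the enzymes that feed the chain, glycolysis had 1 of 9 higher and 2 lower (-0.15), shares and a median near those of all genes, with LDHA, which makes lactate, at 136 and 35.4 FPKM (log2 change -1.95, adjusted p = 3.34e-09). The citric acid cycle and pyruvate dehydrogenase list had 1 of 13 higher, the inhibitory kinase PDK4 (0.87 to 9.73 FPKM), and none lower (-0.24). Antioxidant genes had 1 of 6 higher, TXNRD2 (0 to 3.09 FPKM), and 1 lower, CAT (-0.45), and regulators of mitochondrial biogenesis had 1 of 11 lower, ESRRG (-0.24). PDK4 and TXNRD2 passed the minimum mean of 1 FPKM only through day 42. At day 26, 2 of 20 assembly factors and 3 of 50 mitochondrial ribosomal proteins were called higher and none lower, beside 1.96% of all genes higher and 9.31% lower, with medians of 0.10 and 0.32 beside -0.35. The counts were the same at day 32, beside 2.05% and 5.84% of all genes, with medians of 0.37 and 0.41 beside -0.24. These genes were named because they were called, after their values were seen, and no list was tested as a whole.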

How the data were processed

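The authors deposited FPKM values per gene, made from reads aligned to version 4 of the Gallus gallus genome (Bowtie, TopHat, Cufflinks); tool versions are not given in the sources used here. Libraries came from a stranded polyA kit. Of 100 labelled samples 98 had a matching column; 3 columns matched no sample and were not used. Tables of 6 days were joined by symbol, with no scaling between tables stated. FPKM were compared as log2(FPKM + 1) with limma 3.58.1 (R 4.3.3; lmFit, eBayes with trend) over genes whose mean reached 1 FPKM, entering only the groups compared. P-values were adjusted by Benjamini-Hochberg over all genes tested. Fold changes on this scale understate those of low genes. The depth of each single library was not given, and relative depth was estimated within each day from the nonzero values of genes undetected in many libraries. The genes and lists were chosen with earlier results of these data known. Genes were named if core subunits or isoforms, if most changed at day 42 or between heat and control, or if at 0 beside high values. Alternatives were the pseudocount (0.1), the filter, rescaling to the median gene, an equal FPKM total per library (TPM), a listed 0 as missing, no minimum fold, the range of library numbers and single libraries left out; leaving out libraries with W-linked or muscle transcripts or with fewer than 7000 genes, and single libraries at day 42, was added after seeing the data. Some items are not reported here. The method was tested on simulated data.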

Additional observations from a re-analysis of the deposited data

Results flagged for a closer look

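In groups of 4 to 10 libraries, 22 values of the named genes lay far from the other libraries of their group, out of 161 combinations of gene and group over 21 genes. The rule would flag about 1 in 20 for independent, normally distributed values. Genes of 1 library are not independent, and some of the 21 were named for extreme values, so the 22 cannot be weighed against that rate. Of the 22 values, 7 belonged to day 32 heat library 1276, in which summed muscle markers were at 436 FPKM. ATP5J was at 115, COX4I1 at 166, COX5A at 84.3, NDUFA4 at 203, NDUFAB1 at 42.0, UQCRFS1 at 29.1 and UQCRH at 152 FPKM, each the lowest of 6. Day 40 control library 1279 was lowest for COX4I1 (163 FPKM) and UQCRFS1 (47.4 FPKM), and day 42 control library 1012, which listed few genes, for COX4I1 (98.7 FPKM).

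High values were ATP5A1 in day 32 control 1315 (330 FPKM) and day 32 heat library 1303 (324 FPKM), ATP5J (301 FPKM) and UQCR10 (671 FPKM) in day 32 control 1277, COX5A in day 32 control 1310 (261 FPKM), NDUFA1 in day 40 control 1516 (86.2 FPKM, the others at 0) and UQCRH in day 42 control 993 (3092 FPKM). NDUFA2 was lowest in day 32 control 1314 (109 FPKM), and NDUFB1 was highest in day 22 control 1552 (180 FPKM). ATP5A1W stood apart in day 26 control 1514 (30.9 FPKM), day 32 control 1310 (1.01 FPKM) and day 32 heat library 1305 (31.8 FPKM).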

How the results depend on the processing

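With no minimum fold, control birds had 22 genes higher and 1 lower at day 26, 29 higher and 2 lower at day 32 and 15 higher and 2 lower at day 42, and heat birds 16 and 2. After rescaling to the median gene 15 genes were higher at day 26 (median 0.92), 13 at day 32 (0.92) and 6 at day 42 (0.58). Over all genes tested, 406, 353 and 1338 were then higher and 230, 225 and 1359 lower. At an equal FPKM total 2 were higher at day 32 (0.41), 0 higher and 6 lower at day 42 (-0.32), and 0 higher and 4 lower in heat birds (-0.40). Over all genes that scale called 103 higher and 780 lower at day 32, 549 and 3044 at day 42, and 614 and 2979 in heat birds. Under that scale COX4I1 (-0.43), COX5A (-0.12), COX7C (-0.46), ATP5J (-0.015) and NDUFA6 (-0.62) reversed in control birds, and COX4I1 (-0.45), COX5A (-0.34), COX7A2L (-0.59), UQCRH (-0.078), UQCR10 (-0.21), NDUFS6 (-0.027), NDUFA12 (-0.44) and NDUFB1 (-0.40) in heat birds. With a covariate for the library number range, or within 1 range, 2 genes were higher at day 26, beside 118 of 8026 and 114 of 7931 genes. At day 42 the medians were 0.62 (control) and 0.66 or 0.68 (heat), and UQCRFS1 reversed to 0.64 and 0.42. In heat birds 8 genes were higher within the range and 1 lower, beside 1517 and 1034 of 8229 genes. A pseudocount of 0.1 gave 1 gene lower at day 42 in control and 1 in heat birds, and leaving out the libraries with few genes gave 1 lower in heat birds. The cause of these differences was not tested. Leaving out single libraries gave 5 to 7 genes higher at day 26, 5 to 6 at day 32, 3 at day 42 with 0 to 1 lower, and 0 between heat and control at days 26, 32, 40 and 42. The heat against control median changed sign after rescaling to the median gene and at an equal total at days 26 (0.04 to -0.02 and -0.09) and 42 (0.02 to -0.03 and -0.0048), a move smaller than the SD between birds. No paired analysis was possible because each replicate number belongs to 1 bird and no 2 groups share a number.

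The authors state a range of reads per library for their libraries of days 21, 22 and 42. The depth of each single library is not known beyond a relative estimate within each day, which was not checked against read counts. Day and tissue make-up cannot be told apart at day 42, and house and heat cannot be told apart on any day.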
